A study of Mus musculus with 12 samples.

Results

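Respiratory complex I genes were taken as all genes of the deposited table whose name begins with Nduf. This gave 47 of 10607 genes, of which 39 were counted as subunits and 8 as assembly factors (Ndufaf1 to Ndufaf8). The measurements came from livers of 3 wild-type (WT) mice and 3 mice without Mettl5 (KO), an enzyme that methylates an adenosine of the small-subunit ribosomal RNA. The 6 mice formed 3 litters with 1 mouse of each genotype per litter, and from each liver both total input RNA and ribosome-protected fragments (RPF) were sequenced. The KO allele had a floxed exon 2, made in embryonic stem cells from a cross of C57bl/6 and 129S6 mice and then backcrossed to B6. A CMV-cre transgene deleted the exon in the whole body, so a value from the liver cannot be told apart from an effect of the loss in other organs. Cycloheximide, which holds ribosomes on their messages, was present in the lysis buffer of both genotypes. Age and sex are not given in the labels.

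Complex I is the entry point of the mitochondrial respiratory chain. Its N module takes electrons from NADH, its Q module passes them through iron-sulphur clusters to ubiquinone, and its proximal and distal membrane arms pump protons. A few core subunits carry the chemistry, the hydrophobic core subunits are encoded in mitochondrial DNA, and many supernumerary subunits surround the core. Assembly factors help to build the modules and are absent from the finished enzyme. Liver is rich in mitochondria, and translation of the nuclear subunits takes place on cytosolic ribosomes, whose small subunit carries the site that Mettl5 methylates.

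The 6 input libraries held 8326325 to 11825643 counts over all genes, of which 2398804 to 5121304 fell in the table. Both upper limits were those of KO mouse 1, and the other input libraries had at most 3078540 counts in the table. The 6 RPF libraries held 4623826 to 9184242 reads in the table. Mettl5 itself, the targeted gene, had 15.7 to 38.5 normalized input reads in WT and 8.0 to 9.3 in KO, and 47.8 to 58.4 normalized RPF reads in WT and 5.53 to 9.56 in KO. In RPF its log2 fold change of −2.64 (SE 0.36) had an adjusted p of 0.00504 in limma. All 8 hepatocyte markers were in the table, and their summed level in RPF overlapped between WT (677118 to 1064829) and KO (639958 to 869866). Of the other marker lists, that of stellate cells and fibroblasts stood apart in RPF, at 1322 to 1522 in WT and 2009 to 2155 in KO. For 4 of its 5 genes each KO liver was higher than each WT liver, beside 6.97% of all genes. The remaining gene, Lrat, overlapped (92.4, 32.4 and 53.6 in WT, 61.9, 34.4 and 52.6 in KO). In input the sum of the list overlapped, at 559 to 688 in WT and 639 to 712 in KO. None of the list's genes was at 0. Whether its RPF difference bears on the complex I values was not tested. In whole tissue, a different number of cells of a type and a different amount of RNA per cell cannot be told apart.

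The coding sequences of the 2 members that stood out most in RPF are shown first, since both are among the shortest in the complex. They were joined from the exons of GRCm38, the assembly that mm10 denotes, and capitals mark the start and stop codons. Ndufc1, a small supernumerary subunit of the proximal arm, lies on the minus strand at chr3:51404677-51408988 and has a coding sequence of 231 bases. Ndufb1-ps, at chr12:101968090-101977068 on the minus strand, is listed as a non-coding RNA by GENCODE. RefSeq places the protein-coding gene Ndufb1, a small subunit of the distal arm, at the same locus, with a coding sequence of 174 bases. The table does not say which of these models took the reads.
Ndufc1: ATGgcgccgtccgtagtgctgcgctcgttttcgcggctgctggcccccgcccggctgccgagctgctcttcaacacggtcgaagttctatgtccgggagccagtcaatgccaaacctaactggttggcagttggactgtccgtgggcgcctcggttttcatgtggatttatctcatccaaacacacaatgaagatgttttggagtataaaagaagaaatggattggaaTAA
Ndufb1-ps: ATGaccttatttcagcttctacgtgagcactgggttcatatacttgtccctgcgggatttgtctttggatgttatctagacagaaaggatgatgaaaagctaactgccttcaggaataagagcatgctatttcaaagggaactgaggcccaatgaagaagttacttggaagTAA

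Levels of different members were compared per length, as normalized input reads per kilobase of the coding transcript and normalized RPF reads per kilobase of coding sequence. In WT input the highest levels were those of Ndufa2 (1078 ± 19.0, SD, n = 3), an N module subunit, of Ndufa4 (826 ± 55.3, n = 3), which is now placed in complex IV, and of Ndufa1 (600 ± 132, n = 3), a proximal arm subunit. The lowest were those of Ndufa4l2 (4.86 ± 0.86, n = 3), a paralog of Ndufa4, of the assembly factor Ndufaf5 (7.56 ± 5.72, n = 3) and of Ndufs5 (13.9 ± 4.41, n = 3). In RPF the order was different. Ndufa4 (5920 ± 483, n = 3) and Ndufb1-ps (5604 ± 426, n = 3) were highest and differed by less than their SD, and Ndufa1 followed at 4311 ± 713 (n = 3). Ndufa2, first in input, had 1800 ± 301 (n = 3).

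**Figure D1:**
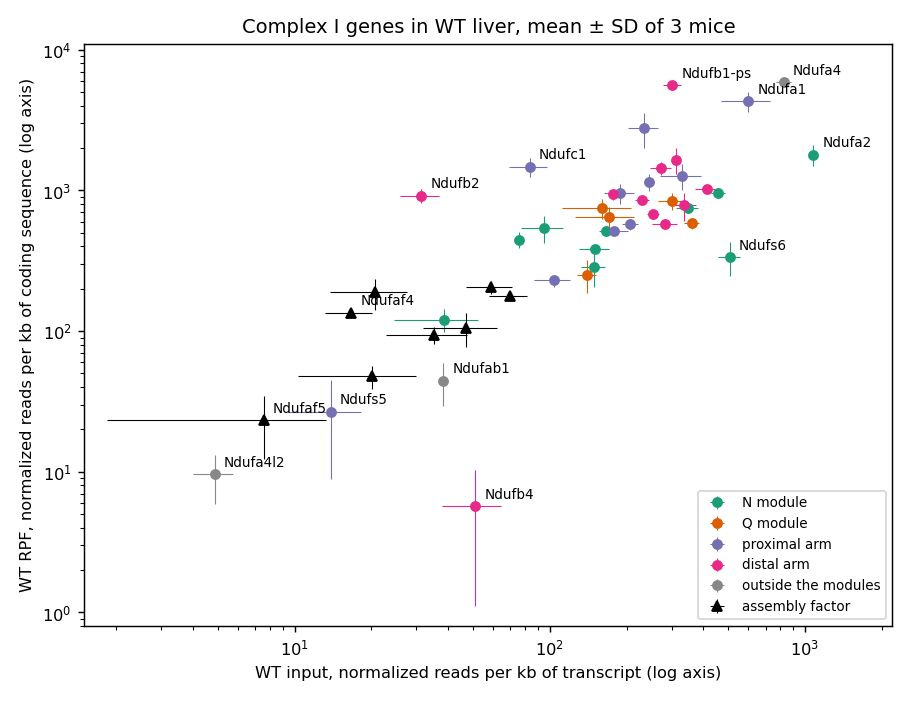
Level of each of the 47 complex I genes in WT liver, as input reads per kilobase of transcript against RPF per kilobase of coding sequence (both normalized, log axes), with the mean and SD of 3 mice and colours for the modules. The assembly factors (triangles) lie at the lower left, Ndufb4 lies lowest in RPF, and Ndufb2, Ndufc1 and Ndufb1-ps lie above the other genes of their input level.

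Translation efficiency (TE), the RPF level per kilobase divided by the input level per kilobase, had a median of 3.10 over the 37 tested subunits in WT, beside 2.09 over the 8986 tested genes with a coding transcript. Among the members it was highest for Ndufb2 (30.3 ± 8.56, n = 3), Ndufb1-ps (18.6 ± 1.97, n = 3), Ndufc1 (17.8 ± 0.94, n = 3) and Ndufc2 (12.3 ± 4.75, n = 3). For Ndufb2 the value depends on the length used, since the annotated principal transcript has 4371 bases around a coding sequence of 318 bases. The TE of Ndufb1-ps lay above that of 99.5% of the tested genes and that of Ndufc1 above 99.4%. The RPF level and TE of Ndufb1-ps rest on the RefSeq lengths of Ndufb1, 174 coding bases in a transcript of 339. Since the model that took its reads is not known, they depend on that choice. At the other end, Ndufs6, an N module subunit, had a TE of 0.68 ± 0.26 (n = 3), above 7.42% of the genes.

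Of the subunits with the fewest RPF, several share their coding sequence with other places in the genome, and RPF were allowed only 1 mapping location. Of the input, too, the study kept only uniquely mapped reads. Every stretch of 30 coding bases of Ndufab1, the mitochondrial acyl carrier protein, and of Ndufb4, a distal arm subunit, was found exactly elsewhere (100% each). For Ndufs5 the share was 81.5% and for Ndufa12 78.2%, while 17 of the 47 members had 0%. Only exact matches were counted, whereas the study's RPF mapping allowed mismatches. Copies with small differences are therefore missed, and a share of 0% does not mean that every read had 1 location. One repeated stretch of each of the 3 members with the largest shares is given here from GRCm38, all on the minus strand. They lie at chr7:122091636-122091665, with 4 other exact places, at chr16:37649029-37649058, with 5, and at chr4:123716050-123716079, with 1.
Ndufab1: gatgcagagaagttaatgtgtccacaagaa
Ndufb4: tttgggcccctcatcttctggtattatgtt
Ndufs5: atgcctttccttgacatacagaaaaagctg

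The 3 WT livers held 1, 5 and 3 RPF reads of Ndufb4, and the 3 KO livers held 3, 6 and 5, against 28 to 35 input reads in WT and 14 to 55 in KO. Ndufab1 had 17 to 38 RPF reads in WT and 17 to 37 in KO. Its input was 128, 135 and 136 normalized reads in WT and 114, 140 and 147 in KO. The 4 subunits with shares of at least 75% had a median WT RPF level of 35.6 per coding kilobase, beside 783 for the 11 subunits with a share of 0%. Over all 39 subunits the share and the level were only weakly related (Spearman rho −0.20 in RPF and −0.30 in input, both across genes of the same libraries). Whether lost multi-mapping reads set these low values was not tested. The input, RPF and TE of Ndufab1, Ndufb4, Ndufs5 and Ndufa12 are therefore uncertain. The same holds in part for the 11 members with shares of 10% to 75%. Among these are Ndufs3 (67.1%), Ndufb3 (49.3%), Ndufs6 (47.2%) and Ndufb11 (41.0%). Ndufc1 (27.2%) and Ndufb1-ps (15.9%), whose RPF and TE are described above and below, are among them too.

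**Figure D2:**
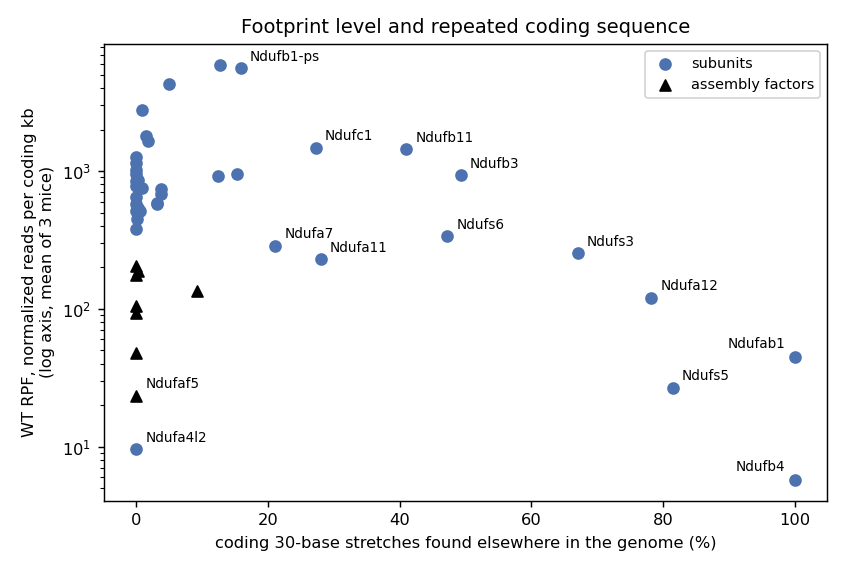
WT RPF level per coding kilobase (log axis, mean of 3 mice) against the percent of a member's 30-base coding stretches found elsewhere in the genome, for 39 subunits (circles) and 8 assembly factors (triangles). The 4 members with a share of at least 75%, Ndufa12, Ndufs5, Ndufab1 and Ndufb4, lie at or below 121, while Ndufa4l2 and Ndufaf5 are low with a share of 0%.

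Subunits and assembly factors were set beside each other as 2 classes. The median input level per kilobase was 213 ± 8.89 (SD over 3 mice) for subunits and 28.0 ± 1.77 for assembly factors in WT, and 208 ± 19.3 and 30.3 ± 4.01 in KO. The ratio of these medians was 6.91 to 8.46 in the 3 WT mice and 6.65 to 7.23 in the 3 KO mice. With the deposited exon length of each gene in place of the coding transcript, the WT ratio was 6.99. In RPF the ratio was 5.41 to 6.31 in WT and 4.77 to 7.37 in KO. Subunit messages were several times more abundant than those of assembly factors in both genotypes, and the ranges of the genotypes overlapped in input and in RPF.

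The ratio of the median TE of subunits to that of assembly factors was 0.89, 0.95 and 0.80 in the WT mice and 1.12, 1.10 and 1.06 in the KO mice, so these groups did not overlap. The median TE of the subunits was 3.05 ± 0.22 in WT and 3.24 ± 0.39 in KO, and that of the 8 assembly factors 3.48 ± 0.40 in WT and 2.97 ± 0.32 in KO (n = 3 each). These medians include genes too low to be tested, Ndufaf5 among them. Over tested genes only, with TE from the mean WT levels, the order was the reverse. The median was then 3.10 for 37 subunits and 2.66 for 7 assembly factors, so the order of the classes in WT is not settled. A comparison gene by gene did not show the same separation. There the median log2 fold change of TE was −0.09 for 37 tested subunits and −0.10 for 7 tested assembly factors, a difference of 0.01. The difference by litter was 0.13, 0.03 and −0.0048.

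**Figure D3:**
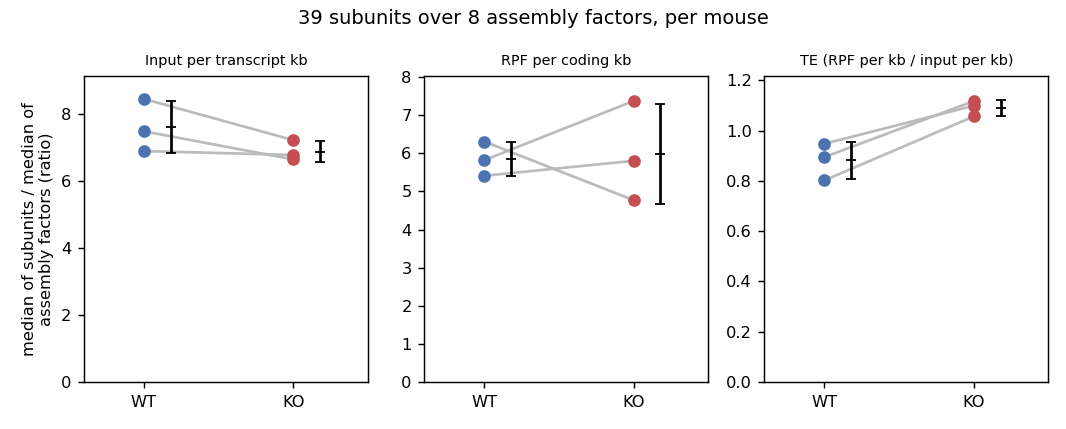
Ratio of the median of 39 subunits to the median of 8 assembly factors in each mouse, for input, RPF and TE per kilobase, with lines joining littermates and the mean and SD of 3 mice beside the points. The input and RPF ratios of WT and KO overlap, and the TE ratio is 0.80 to 0.95 in WT and 1.06 to 1.12 in KO. Genes too low to be tested are included.

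The first comparison asked whether the amount of each message differed between KO and WT liver. In input edgeR's quasi-likelihood test called none of the 44 tested members at an adjusted p of 0.05, nor did DESeq2. The background was 0.0% of 10057 genes. At an unadjusted p under 0.05 the test gave 1 member, Ndufb4, beside 3.46% of all genes. The members' log2 fold changes ran from −0.69 to 0.35, with 21 higher and 23 lower in KO and a median of −0.02, against 0.00 for all genes. Ndufs5, Ndufaf5 and Ndufa4l2 had too few counts for the test.

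The 5 members with the smallest p in input were Ndufb4, Ndufb8, Ndufs3, Ndufa13 and Ndufc1. Normalized input of Ndufb4 was 64.2, 43.9 and 40.6 in WT and 36.2, 18.6 and 32.0 in KO. The log2 fold change was −0.69 (SE 0.31), with an adjusted p of 0.999 in edgeR. No KO value reached the lowest WT value, yet the repeated sequence described above makes this gene's reads uncertain. Ndufb8, another distal arm subunit, had 171, 183 and 164 in WT and 126, 161 and 114 in KO (log2 fold change −0.34, SE 0.17). Ndufs3, a core subunit of the Q module, had 136, 143 and 160 in WT and 114, 129 and 101 in KO (−0.33, SE 0.17). Ndufa13 and Ndufc1, both of the proximal arm, had log2 fold changes of 0.26 (SE 0.16) and 0.34 (SE 0.21), and their groups overlapped. The 44 members tested in RPF and TE leave out Ndufb4 and include Ndufs5. Of these, 3 (Ndufa8, Ndufb8 and Ndufs3) were lower in input in every KO than in every WT liver and none was higher, beside 5.6% and 3.65% of all genes.

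The second comparison asked the same of the footprints. In RPF none of the 44 tested members passed an adjusted p of 0.05 in limma, beside 0.489% of 8994 genes, and none passed in edgeR on the recovered whole reads, beside 0.734% of the same genes. At an unadjusted p under 0.05 there were 9 members, 2 higher and 7 lower in KO, beside 13.4% of all genes. The members' log2 fold changes had a median of −0.05, against −0.03 for all genes, with 20 higher and 24 lower. The test required a mean of 10 normalized reads in input and in RPF, which Ndufb4, Ndufaf5 and Ndufa4l2 did not reach. Ndufb4 fell short in RPF and Ndufaf5 in input. Ndufs5, counted as higher (log2 fold change 0.70, SE 0.57), passed in RPF only through KO, since its WT mean was below 10. For 38 of the 44 members the 95% interval of the log2 fold change excluded a change of 2-fold or more in either direction.

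With a replicate block of litter, which takes the pairing of littermates into account, Ndufc1 and Ndufb1-ps passed, 2 of 44 members beside 2.62% of all genes. Ndufc1 had 326, 299 and 401 normalized RPF reads in WT and 459, 546 and 798 in KO. Every KO liver lay above every WT liver, and the highest KO value came from litter 3. The log2 fold change was 0.78 (SE 0.21), or 1.72-fold higher, with an adjusted p of 0.104 in limma without the block and of 0.0106 with it. Its input was 105, 86.2 and 122 in WT and 108, 117 and 171 in KO. RPF over input, with no length in the ratio, was 3.12, 3.46 and 3.29 in WT and 4.25, 4.67 and 4.66 in KO, again without overlap.

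Ndufb1-ps had 1051, 972 and 903 normalized RPF reads in WT and 696, 654 and 511 in KO. The groups did not overlap, and the KO mouse was lower in 3 of 3 litters. The log2 fold change was −0.66 (SE 0.17), or 1.58-fold lower, with an adjusted p of 0.0788 in limma without the block and of 0.0309 with it. Input of this gene overlapped, with 108, 92.5 and 106 in WT and 68.4, 102 and 97.5 in KO. RPF over input was 9.71, 10.5 and 8.50 in WT and 10.2, 6.39 and 5.24 in KO, so that KO mouse 1 lay within the WT range.

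Base composition moved with the RPF changes. Across all 8986 tested genes with a coding sequence GC content was related to the log2 fold change of RPF with a Spearman rho of 0.46, and across the 44 members with 0.37, given as descriptions over genes of the same libraries. Ndufb1-ps has the lowest GC content of the tested members, 41.4%, against a median of 53.1%, and Ndufc1 has 52.8%. A smooth GC trend over all genes was then removed from each library's deviation from the mean of its assay. In the refit Ndufb1-ps stood at −0.40 (adjusted p = 0.262 with the block, limma) and Ndufc1 at 0.78 (adjusted p = 0.0171 with the block). Of the 12 members under 50% GC, 9 had a negative RPF log2 fold change (median −0.21), and of the 32 members of at least 50% GC, 15 did (median 0.02).

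The next 4 members by p in RPF were Ndufa8, Ndufaf4, Ndufa1 and Ndufb6. Ndufa8, a proximal arm subunit imported into the space between the mitochondrial membranes, had 536, 561 and 692 in WT and 785, 803 and 863 in KO. Its log2 fold change was 0.46 (SE 0.13), with an adjusted p of 0.122 in limma. Ndufaf4, which works with Ndufaf3 on the Q module, had 72.3, 74.2 and 65.5 in WT and 34.8, 46.7 and 50.7 in KO. On the log2 scale the difference was −0.69 (SE 0.22, adjusted p = 0.158). Ndufa1 had 1075, 772 and 907 in WT and 766, 619 and 471 in KO (−0.58 on the log2 scale, SE 0.19, adjusted p = 0.175). The highest KO value was just below the lowest WT value. Ndufb6, of the distal arm, had 792, 563 and 557 in WT and 496, 438 and 443 in KO (−0.46, SE 0.15, adjusted p = 0.187).

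**Figure D4:**
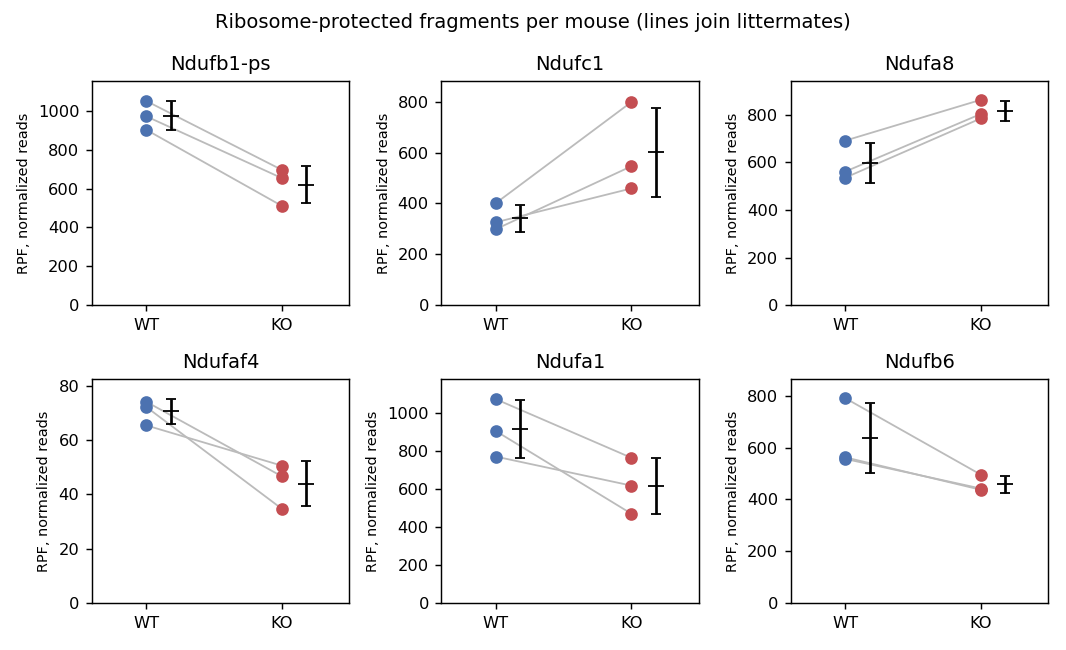
Normalized RPF reads per mouse for the 6 members with the smallest p in RPF, with lines joining littermates and the mean and SD of 3 mice beside the points. In each panel the WT and KO points do not overlap, with KO above WT for Ndufc1 (459 to 798 against 299 to 401) and Ndufa8 and below it for Ndufb1-ps, Ndufaf4, Ndufa1 and Ndufb6.

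Of the 44 tested members, 13 (29.5%) had every KO value below every WT value in RPF, beside 12.9% of all genes, and 4 (9.09%) had every KO value above, beside 6.97%. Among the 13 were the core subunits Ndufv1, Ndufv2, Ndufs1 and Ndufs8, the supernumerary subunits Ndufa1, Ndufa9, Ndufa10, Ndufa12, Ndufb1-ps, Ndufb3 and Ndufb6, and the assembly factor Ndufaf4. The 4 were Ndufa8, Ndufb7, Ndufc1 and Ndufv3. With the columns centred on their medians the lower count was 9, beside 11.6% of all genes, and the higher count 4, beside 7.82%. With TMM scaling of the whole reads they were 9, beside 10.8%, and 4, beside 8.74%, both scalings having been added after seeing the data. The summed normalized RPF of the 39 subunits was 17905 to 18976 in WT and 16884 to 17363 in KO, and that of the 8 assembly factors was 613 to 687 and 587 to 718.

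The 7 nuclear core subunits hold the flavin, the iron-sulphur clusters and the ubiquinone site. In the deposited scaling their summed RPF was 4612 to 5025 in WT and 4141 to 4196 in KO. Their summed input overlapped (2342 to 2522 and 2116 to 2511). Summed RPF over summed input was 1.99, 2.02 and 1.84 in WT and 1.98, 1.67 and 1.68 in KO. There KO mouse 1 lay within the WT range. Ndufv1, which binds NADH and flavin, had 1379, 1323 and 1298 RPF in WT and 1080, 1209 and 1102 in KO (log2 fold change −0.24, SE 0.12, limma, adjusted p = 0.417). Ndufs1, with several clusters of the N module, had 1219, 1137 and 1026 in WT and 956, 900 and 819 in KO (−0.34, SE 0.13, adjusted p = 0.252). Further log2 fold changes were −0.28 (SE 0.16) for Ndufv2, −0.31 (SE 0.20) for Ndufs8, 0.06 (SE 0.16) for Ndufs7 and 0.23 (SE 0.18) for Ndufs3. The median over the core subunits was −0.24, and none passed the test.

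By module, the RPF log2 fold change had a median of −0.26 over the 10 N module subunits, −0.14 over the 5 Q module subunits, 0.01 over the 10 proximal arm subunits and −0.00 over 10 tested distal arm subunits. Within the N module the values ran from −0.58 (Ndufa12) to 0.39 (Ndufs6), and in the proximal arm from −0.58 (Ndufa1) to 0.78 (Ndufc1). The SE of a single member was 0.12 to 0.57, with a median of 0.18. The median over the 29 tested supernumerary subunits was −0.00. Ndufa4 and Ndufab1, counted outside the modules, had −0.07 (SE 0.15) and −0.21 (SE 0.29).

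**Figure D5:**
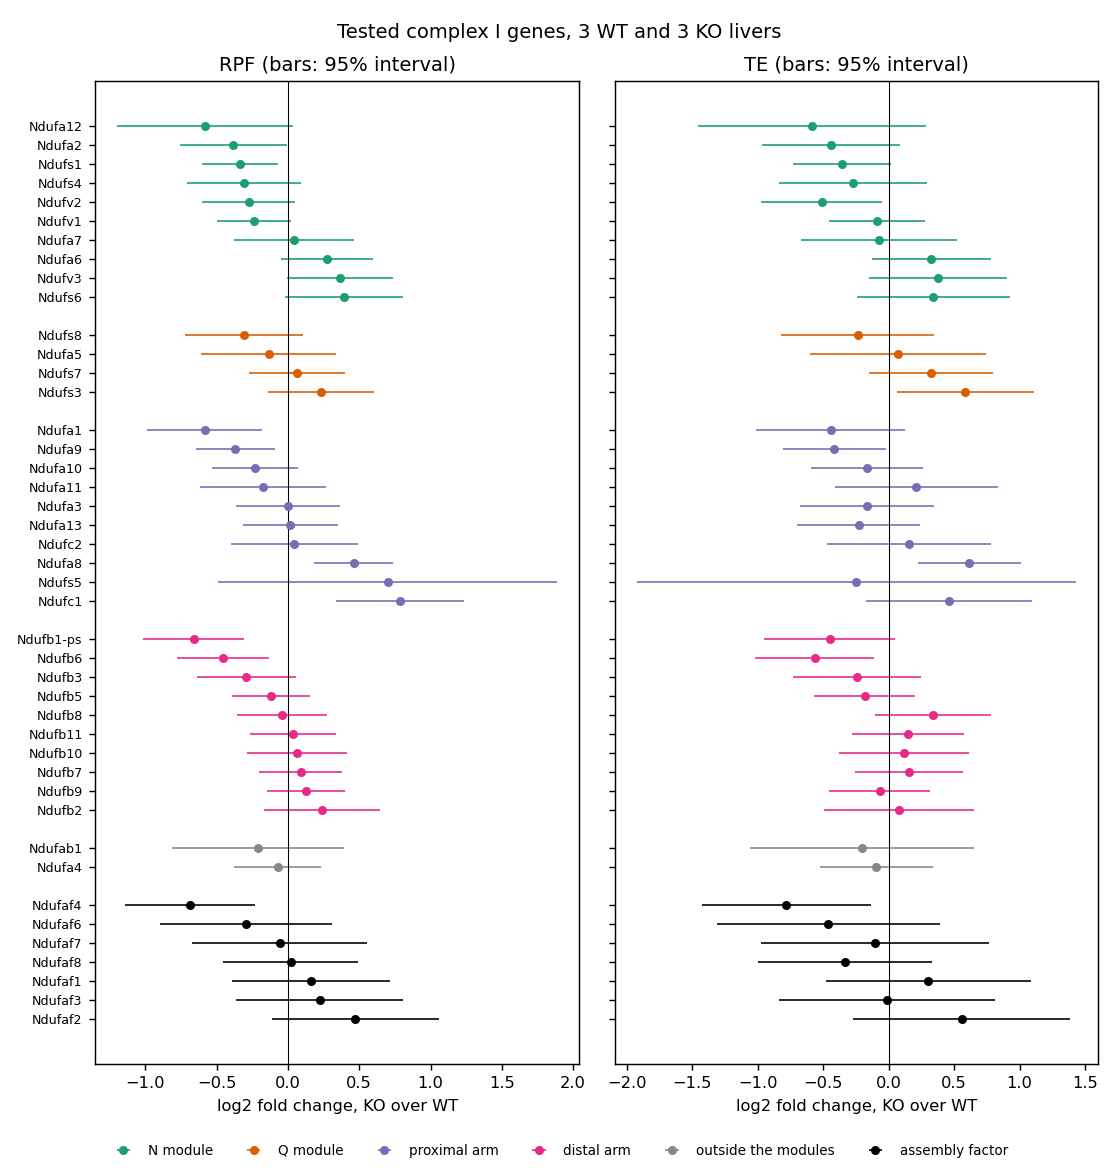
Log2 fold change of RPF (left) and TE (right), KO over WT, with its 95% interval for tested complex I genes, ordered by module and colour. The members of each module spread to both sides of 0, from −0.69 (Ndufaf4) to 0.78 (Ndufc1) in RPF.

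The assembly factors had few reads and wide errors. Besides Ndufaf4, Ndufaf1, part of an early membrane assembly complex, had an RPF log2 fold change of 0.16 (SE 0.26), and Ndufaf2, a late-acting factor, had 0.47 (SE 0.28). Ndufaf3 had 0.22 (SE 0.28), Ndufaf6 −0.29 (SE 0.29), Ndufaf7, a methyltransferase, −0.06 (SE 0.29), and Ndufaf8 0.02 (SE 0.23). Ndufaf5, a hydroxylase for Ndufs7 and partner of Ndufaf8, was not tested. It had 37.5, 17.1 and 18.1 normalized RPF reads in WT and 25.0, 19.7 and 17.2 in KO, which overlapped. Of the 7 tested factors 4 were higher and 3 lower, with a median of 0.02. In input the 7 had log2 fold changes of −0.12 to 0.35. Ndufa4l2, the other member with too few reads, had 2 to 5 RPF reads and 1 to 4 input reads in a library.

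TE, tested as the RPF change minus the input change, addressed whether footprints differed beyond the message. None of 44 members passed in limma, beside 0.0% of 8994 genes, and none passed in edgeR on whole reads, which called no gene either. At an unadjusted p under 0.05 there were 6 members, 2 higher and 4 lower, beside 4.7% of all genes. The median log2 fold change was −0.10 over members, with 17 higher and 27 lower, against −0.01 over all genes. In 31 of 44 members the 95% interval excluded a 2-fold change, so that this fit left room for one in the other 13. The fit took the RPF and the input of a liver as independent. With a block of mouse, which pairs them, the SE of Ndufc1 was 0.18, beside 0.30 in the unpaired fit without a filter.

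The 5 smallest p in TE belonged to Ndufa8 (log2 fold change 0.62, SE 0.19, limma, adjusted p = 0.998), Ndufb6 (−0.57, SE 0.22), Ndufaf4 (−0.78, SE 0.31), Ndufs3 (0.59, SE 0.25) and Ndufv2 (−0.51, SE 0.22), which all had that same adjusted p. With the block of mouse the SE was 0.17 for Ndufa8, 0.19 for Ndufb6, 0.31 for Ndufaf4 and 0.23 for Ndufs3. RPF over input of Ndufa8 was 2.66, 2.61 and 3.18 in WT and 4.16, 4.26 and 4.50 in KO. That of Ndufaf4 was 1.58, 1.08 and 0.98 in WT and 0.56, 0.70 and 0.81 in KO. The groups of both genes did not overlap. Without overlap, 4 of 44 members were higher in KO (Ndufa8, Ndufc1, Ndufs7 and Ndufv3), beside 6.08% of all genes, and 5 were lower (Ndufa9, Ndufb6, Ndufs1, Ndufaf4 and Ndufaf8), beside 7.34%.

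The mitochondrially encoded core subunits are made on mitochondrial ribosomes, and 6 of the 7 were in the table. None passed the test in input, RPF or TE. Their RPF differed widely among WT mice, as for mt-Nd1, with 2684, 7883 and 5492 in WT and 4661, 7399 and 6925 in KO. In input mt-Nd1 was at 3449, 3617 and 3333 in WT and at 3587, 3199 and 3396 in KO. Assembly factors known by other names gave 13 tested genes of 16 listed, none of which passed. In RPF 4 of them were higher and 9 lower, with a median of −0.09. Tmem126a had the smallest p, with 73.2, 108 and 109 in WT and 54.9, 68.2 and 49.7 in KO (log2 fold change −0.72, SE 0.22, limma, adjusted p = 0.145).

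Other respiratory chain genes were used to place these values. In RPF the median log2 fold change was −0.15 over 32 tested nuclear genes of complexes III to V (9 higher, 23 lower, none passing) and −0.01 over 75 mitochondrial ribosomal protein genes (35 higher, 40 lower, none passing). Every KO value was below every WT value for 7 of the 32 genes (21.9%) and for 17 of the 75 (22.7%) in the deposited scaling, beside 12.9% of all genes. With centred columns these counts were 7 (21.9%) and 15 (20.0%), beside 9 of 44 (20.5%) for the complex I members and 11.6% of all genes. Of the 4 succinate dehydrogenase genes, Sdhd, a membrane anchor, passed in RPF. It had 1488, 1121 and 1714 in WT and 2478, 2294 and 2625 in KO (log2 fold change 0.79, SE 0.14, limma, adjusted p = 0.0120), and the other 3 lay between −0.19 and −0.15.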

How the data were processed

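Input RNA came from an undigested share of each liver lysate, and RPF from the share digested with MNase. Per the file headers and the study's methods, the authors aligned input read pairs to mm10 with STAR 2.7.3a. They kept the uniquely mapped reads and deposited raw counts per gene from featureCounts. RPF reads were trimmed to footprint length, cleared of rRNA and mapped to 1 location by RiboToolkit. The authors deposited a table with input and RPF signal: each value is a whole number of reads (100% of values, within 0.01 of a read) times 1 factor per library, with no gene length, although it is named for RPKM. The depth per library follows from these reads. The table's own fold changes and p-values were not used.

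Input counts were tested with edgeR 4.0.16 (quasi-likelihood, TMM), the table with limma 3.58.1 on log2(value + 1) where the mean reached 10 in both assays, all with Benjamini-Hochberg adjustment over all genes and a threshold of 0.05. Fold changes on this scale understate changes of low genes. TE was tested in the same fit as the difference between the RPF and input changes, with RPF and input of a mouse taken as independent. The SE for edgeR was derived from its F statistic. Labels name mice with the same number as littermates, so the numbers pair the samples: deviations from group means correlated with r of 0.14 to 0.24 between littermates in RPF and of 0.081 to 0.13 in input. No litter term is named in the methods of the study, and the fit without the block comes first. Transcript and coding lengths came from GENCODE vM21 (46 members) and RefSeq (Ndufb1). Genes were named if among the 5 smallest p of a measure, past the threshold, core subunits, assembly factors, among the 3 highest or lowest in WT input, or untested. The members and lists were chosen with earlier results of these data known. The values of some items are not reported here by name. Replicate pairs differed by more than sampling noise. The scripts were tested on simulated data.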

Additional observations from a re-analysis of the deposited data

How the results depend on the processing

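Of 528 values recomputed under alternatives for 39 results, 473 gave the same direction and the same call, or a value within the spread. In input no alternative called a member, while over all genes DESeq2 called 1, the test without a filter 30 and the replicate block of litter 2, and leaving out 1 mouse gave 0 to 21 (2 without WT mouse 3, 21 without KO mouse 2, 5 without KO mouse 3). In RPF the replicate block called 2 members and 236 genes in all, and GC trend removal with the block called 1 member. GC trend removal alone called 13 genes in all. Without 1 mouse, 0 to 2 members and 0 to 228 genes were called in RPF. Without KO mouse 1 it was 228 genes, Ndufc1 (0.96, adjusted p = 0.0346) and Ndufb1-ps (−0.75, adjusted p = 0.0258) among them. It was 28, 9 and 16 without WT mouse 1, 2 and 3, and 0 and 11 without KO mouse 2 and 3. In TE no alternative called a member, and the replicate block, with or without GC trend removal, called 1 gene. The blocked fit changed no other call of a member. The cause of these differences was not tested.

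The median RPF log2 fold change of subunits minus that of assembly factors was −0.09 and became −0.052 without a filter, 0.22 with a mean of at least 50, −0.17 after GC trend removal with or without the replicate block, −0.061 without the members outside the modules, and −0.25 to 0.0010 without 1 mouse. In TE it was 0.13 without a filter, 0.15 with a mean of at least 50, −0.15 in edgeR on whole reads and −0.10 to 0.087 without 1 mouse, so its sign is not settled. Small RPF changes reversed after GC trend removal with or without the block, for Ndufaf7 (0.027), Ndufaf8 (−0.39) and Ndufs7 (−0.19). Without 1 mouse, Ndufaf7 (−0.17 to 0.086), Ndufaf8 (−0.089 to 0.16) and Ndufs7 (−0.031 to 0.17) took both signs. With TMM scaling of the whole reads, chosen after seeing the data, 9 members were lower in every KO liver, beside 10.8% of all genes, and with centred columns also 9, against 13. The assembly factors' RPF change had a median SE of 0.28 beside 0.17 for subunits; the part of depth in it was not tested.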
